A study of Mus musculus with 4 samples.

Results

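The genes described here are 10 of the 4167 genes with complete values in the series, 5 of DNA replication (Mcm3, Mcm6, Mcm10, Dtl and Exo1) and 5 of mitosis (Cenpf, Kif14, Nek2, Nuf2 and Aspm). They were chosen by name for their function, all 10 were present, and all 10 passed the filter on low values (a log2 value of 1 or more in at least 2 libraries). They were measured by RNA sequencing of long-term haematopoietic stem cells (LT-HSCs), the rare marrow cells that sustain all blood lineages and are known for dividing seldom. The cells were sorted by flow cytometry from tibia and femur of mice with intact Atf4 (WT, 2 libraries) and of mice with an Atf4 knockout (ATF4 KO, 2 libraries), which the series' design names CKO, a conditional knockout. Atf4 encodes a transcription factor through which cells respond to stress and amino acid shortage. Libraries of polyA RNA were made by a protocol based on Smart-seq2, which amplifies full-length cDNA. Strain, age and the Cre driver of the knockout are not given in the sources used here, nor is it said whether the libraries came from separate animals, so p-values measure only the spread between these libraries. Atf4 itself lies outside the stretch of genome analysed here, which was chromosome 1 and the start of chromosome 2, so the genotype labels were not checked against it.

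Cells copy their DNA once per division, in S phase, and separate the copies in mitosis. Mcm3 and Mcm6 are subunits of the ring-shaped MCM2-7 helicase, which is loaded onto origins before S phase and unwinds DNA at the fork. Mcm10 helps to activate that helicase, Dtl directs a ubiquitin ligase that removes the loading factor Cdt1 during S phase, and Exo1 is an exonuclease of mismatch repair and DNA end processing. In mitosis Nuf2 is a subunit of the NDC80 complex that ties chromosomes to microtubules, and Cenpf is a kinetochore protein. Nek2 is a kinase of centrosome separation, Kif14 a kinesin of cytokinesis, and Aspm a spindle pole protein. Transcripts of both groups are known to be scarce in resting cells and abundant in dividing ones. Replication genes are classically controlled by E2F factors, and mitosis genes through the cell cycle homology region (CHR) and CCAAT boxes.

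Promoters of the 2 most abundant replication genes, of 2 mitosis genes with a CHR and of Nek2 are shown, the first 4 as examples of the E2F and CHR letters and Nek2 as the 1 gene that passed the test below. They run from 250 bases before to 50 bases after the transcript start (RefSeq, GRCm38.p6), and 9 of the 10 genes had an entry, all but Exo1. Capitals mark E2F letters (TTCCCGC, the variant TTCGCGC, the variant TTGCCGC or the variant TTGGCGC) in Mcm3, at chr1:20820263-20820562, and Mcm6, at chr1:128359656-128359955, both on the minus strand. They mark CHR letters (TTTGAA or TTCGAA) and CCAAT in Cenpf, at chr1:189688037-189688336 on the minus strand, and Aspm, at chr1:139454523-139454822 on the plus strand. In Nek2, at chr1:191821223-191821522 on the plus strand, they mark CCAAT.
Mcm3: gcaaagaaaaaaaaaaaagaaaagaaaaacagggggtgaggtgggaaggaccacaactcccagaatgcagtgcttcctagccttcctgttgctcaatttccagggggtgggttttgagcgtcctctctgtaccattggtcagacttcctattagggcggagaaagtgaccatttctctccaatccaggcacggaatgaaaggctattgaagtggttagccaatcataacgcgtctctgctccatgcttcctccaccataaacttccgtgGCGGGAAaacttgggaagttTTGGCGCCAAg
Mcm6: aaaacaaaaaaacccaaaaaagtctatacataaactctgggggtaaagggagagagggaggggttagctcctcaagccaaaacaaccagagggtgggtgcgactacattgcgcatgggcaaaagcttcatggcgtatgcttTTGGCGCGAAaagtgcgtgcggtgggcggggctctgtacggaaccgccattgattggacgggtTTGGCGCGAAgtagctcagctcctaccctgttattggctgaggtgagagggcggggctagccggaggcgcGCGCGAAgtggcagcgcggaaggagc
Cenpf: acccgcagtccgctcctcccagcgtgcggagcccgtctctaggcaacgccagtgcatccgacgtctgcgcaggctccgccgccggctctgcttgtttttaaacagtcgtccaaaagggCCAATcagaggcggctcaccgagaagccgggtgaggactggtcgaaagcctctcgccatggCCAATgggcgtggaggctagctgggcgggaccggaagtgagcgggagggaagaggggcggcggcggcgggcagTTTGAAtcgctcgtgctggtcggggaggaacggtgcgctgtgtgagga
Aspm: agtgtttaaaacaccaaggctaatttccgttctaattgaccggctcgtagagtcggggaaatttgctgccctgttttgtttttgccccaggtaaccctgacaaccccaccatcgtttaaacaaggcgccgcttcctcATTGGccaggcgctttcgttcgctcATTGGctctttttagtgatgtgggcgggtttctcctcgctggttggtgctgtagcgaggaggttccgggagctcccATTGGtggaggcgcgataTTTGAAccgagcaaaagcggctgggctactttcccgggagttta
Nek2: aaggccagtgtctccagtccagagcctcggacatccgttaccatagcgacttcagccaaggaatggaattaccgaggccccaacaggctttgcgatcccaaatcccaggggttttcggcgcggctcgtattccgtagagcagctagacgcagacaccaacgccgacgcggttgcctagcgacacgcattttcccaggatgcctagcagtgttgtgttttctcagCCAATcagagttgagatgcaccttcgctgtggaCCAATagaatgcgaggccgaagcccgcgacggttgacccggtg
All motifs were searched on both strands, and matches may overlap, as in the paired E2F letters of Mcm6. E2F letters were found in 3 of 9 promoters, those of Mcm3, Mcm6 and Dtl, and in no mitosis gene. Of all 32851 promoters of this length 9.57% held them, and of those of 850 tested genes 18.4%. CHR letters were found in the promoters of Cenpf, Kif14 and Aspm and in no replication gene, against 19.2% of all promoters and 18.9% of those of tested genes. They began at position 3 from the transcript start in Cenpf, 7 in Aspm and -228 in Kif14. CCAAT was in 8 of 9, all but Nuf2, against 37.4% and 39.8%. The composite element that ATF4 is known to bind (searched as TGATGNAA) was in none of the 9, in 3.97% of all promoters and in 2.35% of those of tested genes. These are letter matches and not binding sites, and 9 promoters are too few to compare shares.

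In WT cells the replication helicase stood far above the mitosis genes. Levels were compared as normalised reads per kb of exon, where normalised reads are the reads recovered from the deposited values divided by each library's size factor, its relative depth. With exons of GENCODE's basic transcript set, Mcm3 was at 137 in WT 1 and 148 in WT 2. Mcm6 was at 134 and 137, so these 2 overlapped. Dtl followed at 33.3 and 32.3, Nuf2 at 19.6 and 19.8, and Nek2 at 16.4 and 19.0. Mcm10 was at 8.61 and 9.79, Exo1 at 6.61 and 6.18, and Cenpf at 6.10 and 5.35. Aspm, at 1.79 and 1.84, and Kif14, at 1.06 and 0.945, were lowest. Beyond the pair of helicase subunits, no neighbours in this order overlapped over the 2 libraries. All 4 lowest genes but Exo1 were mitosis genes. With all annotated exons Mcm6 (127) came before Mcm3 (115), and Nek2 (12.6) before Dtl (10.07) and Nuf2 (8.59). On that count the exons of Dtl summed to 13.7 kb in place of 4.21 kb, and those of Nuf2 to 6.34 kb in place of 2.76 kb. On that length, Mcm6 and Mcm3 were above 99.2% and 99.1% of 852 protein-coding genes, and Aspm and Kif14 were above 38.4% and 29.1%. The WT libraries differed by 0.828% (Nuf2) to 16.0% (Nek2) for these genes, with WT 1 higher in 4 of 10.

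**Figure D1:**
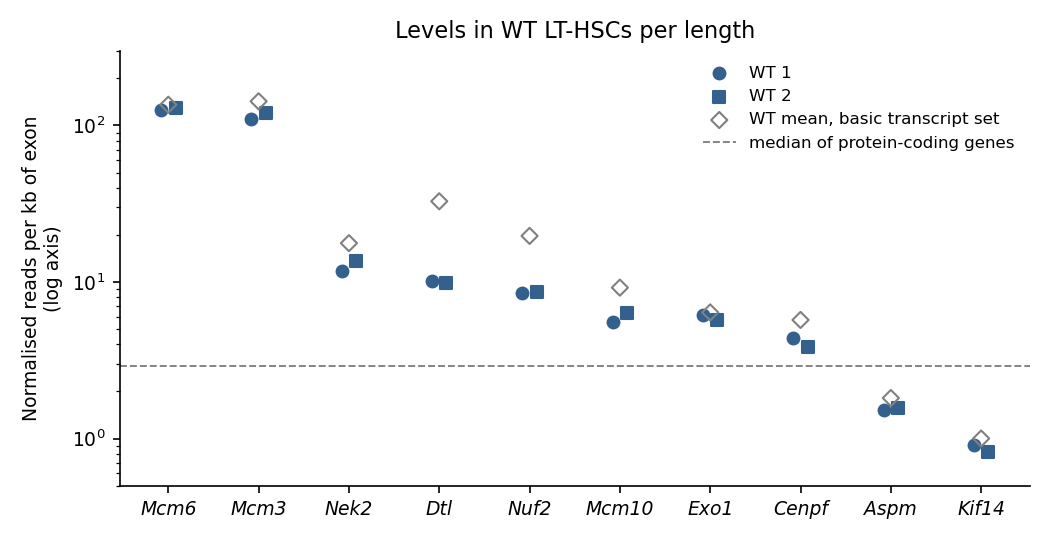
Normalised reads per kb of exon (log axis) of the 10 genes in WT 1 (circles) and WT 2 (squares) with all annotated exons, ordered by their mean, with the WT mean over the basic transcript set (diamonds) and the median of 852 protein-coding genes (dashed, 2.92). On all annotated exons Mcm6 (127) and Mcm3 (115) lie highest and Kif14 (0.864) lowest.

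The ATF4 KO libraries had 0.166% (ATF4 KO 1) and 0.171% (ATF4 KO 2) of the depth of WT 1, by size factors of 0.0360, 0.0372 and 21.7. One ATF4 KO read was thus worth 27.8 or 26.9 normalised reads. WT reads of these genes ran from 145 (Kif14, WT 2) to 12724 (Mcm6, WT 1), and ATF4 KO reads from 0 to 14. A gene with 0 ATF4 KO reads is not listed at 0. The transform behind the deposited log2 values gave it a value from 2.79 to 3.76 in these genes, so that value and the small spread between the libraries are not measurements of its level. Differences below are ATF4 KO minus WT on that log2 scale, on which values of few reads are shrunk towards the mean of the gene. In bulk RNA, fewer cycling cells and less RNA per cell cannot be told apart.

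**Figure D2:**
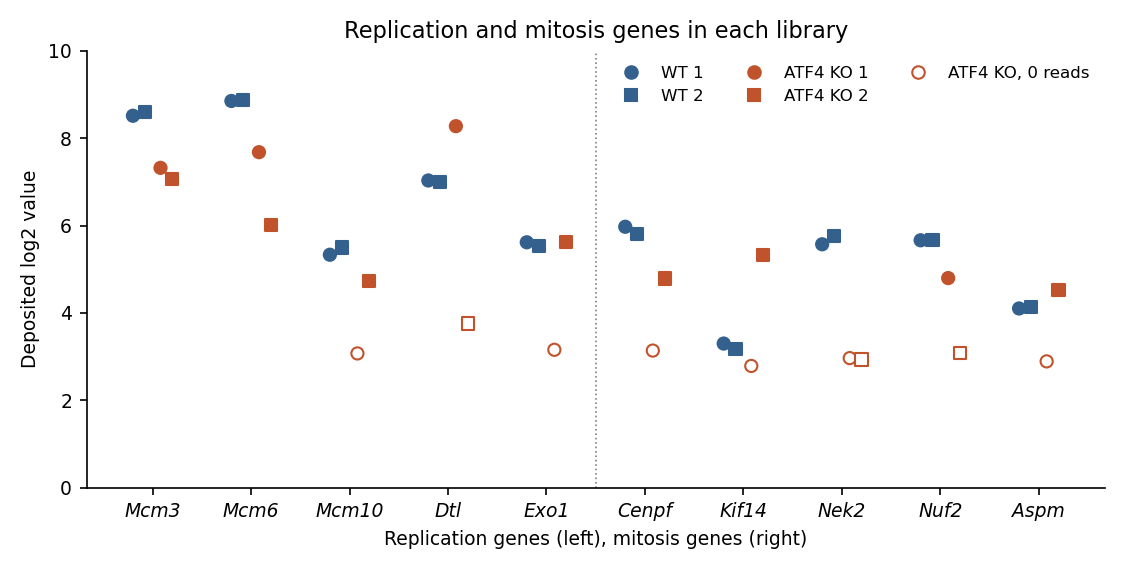
Deposited log2 value of each gene in WT 1, WT 2 (blue), ATF4 KO 1 and ATF4 KO 2 (orange), replication genes left of the dotted line. Open symbols are ATF4 KO libraries with 0 reads of the gene. Both WT points lie close together, and the ATF4 KO points lie farthest apart in Dtl (8.27 and 3.76).

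The helicase subunits were lower in both ATF4 KO libraries than in both WT libraries, but neither passed the test (limma, a linear model that shares variance over genes, with p adjusted over all tested genes and a threshold of 0.05). Of all 1199 tested genes, 40.7% had both ATF4 KO values below both WT values. Mcm3 (chromosome 1, 20802968 to 20820312) had log2 values of 8.51 and 8.60 (WT) against 7.32 and 7.06 (ATF4 KO). Its difference was -1.37 ± 0.52 (SE; limma, adjusted p = 0.142). Mcm6 (chromosome 1, 128331590 to 128359664) read 8.85 and 8.88 (WT) against 7.68 and 6.02 (ATF4 KO), a difference of -2.02 ± 0.86 (SE; limma, adjusted p = 0.166). Alone among the 10 genes, this pair was sampled in both ATF4 KO libraries, with 5 and 4 reads for Mcm3 and 7 and 1 for Mcm6. At WT levels and the size factors, 31.6 and 43.4 reads were expected over the pair. The ratio of seen to expected reads was 0.285 for Mcm3 (95% exact Poisson interval 0.130 to 0.541) and 0.184 for Mcm6 (0.0796 to 0.363). Such intervals cover counting error only, and PCR copies are not independent molecules. Over 534 other genes with WT means of at least 3 and recovered reads, seen reads were 0.488 of those expected. This yield leaves out 116 genes of such levels whose reads were not recovered. At that yield the ratio was 0.584 (0.267 to 1.11) for Mcm3 and 0.378 (0.163 to 0.745) for Mcm6. Other genes with WT means from 8 to 9, the level of Mcm3 and Mcm6, yielded less where reads were recovered, 57 of 242.3 expected in 9 genes (0.235). At that yield the ratio was 1.21 (0.554 to 2.30) for Mcm3 and 0.784 (0.338 to 1.54) for Mcm6, and neither interval excluded 1. Recovery stopped at a mean of 352.1 normalised reads over the 4 libraries, so at this WT level it favoured genes with few ATF4 KO reads. That yield may be low through this selection, and cannot decide whether Mcm3 or Mcm6 was lower than other genes of its level. Mcm3 and Mcm6 met the same limit, with mean normalised WT reads of 432.3 and 593.4. At the full expected reads their means would have lain above 352.1. Their own ratios may thus be low through this selection, which the Poisson intervals do not cover. Of 37 other tested genes with WT means from 8 to 9, 9 had a lower mean in ATF4 KO, and the median difference over the 37 was 1.82. Reads were not recovered for 28 of the 37. Whether the deposited fit converged for such genes, here and wherever reads were not recovered, is not known, so their values may not be levels. With no trend in limma's prior variance Mcm3 passed (adjusted p = 0.0245).

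The other replication genes had reads in 1 ATF4 KO library each, and that library decided the value. Dtl (chromosome 1, 191537356 to 191575544) was at 7.03 and 7.0 in WT, at 8.27 in ATF4 KO 1, above both WT libraries, and at 3.76 in ATF4 KO 2, below both. It had 14 reads in ATF4 KO 1 and 0 in ATF4 KO 2, where 4.96 and 5.13 were expected. Its difference of -1.0 ± 1.91 (SE) did not pass (limma, adjusted p = 0.682), and it was -3.25 without ATF4 KO 1 and 1.26 without ATF4 KO 2. The ratio over the pair was 1.39 (0.758 to 2.33). Mcm10 (chromosome 2, 4989714 to 5012791) read 5.33 and 5.50 (WT) against 3.07 and 4.73 (ATF4 KO), with 0 and 1 reads against 3.33 expected. Its difference was -1.51 ± 0.72 (SE; limma, adjusted p = 0.199), from -0.69 without ATF4 KO 1 to -2.34 without ATF4 KO 2. Exo1 (chromosome 1, 175880581 to 175913489) read 5.62 and 5.53 (WT) against 3.16 and 5.63 (ATF4 KO), so the groups overlapped. It had 0 and 2 reads against 3.64 expected, and a difference of -1.18 ± 1.06 (SE; limma, adjusted p = 0.420). Without ATF4 KO 1 the difference was 0.052, and without ATF4 KO 2 it was -2.42. Reads in 1 library only were common: of 241 other tested genes with 2 or more recovered ATF4 KO reads, 53.1% had them all in 1 library. Of 53 such genes with 8 or more reads, nearer to Dtl, 31 did.

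Among the mitosis genes Nek2 alone passed the test, and it had no ATF4 KO read. Nek2 (chromosome 1, 191821444 to 191833050) read 5.57 and 5.76 (WT) against 2.97 and 2.94 (ATF4 KO), and fell by 2.72 ± 0.17 (SE; limma, adjusted p = 0.00294). Of all 1199 tested genes 22.4% passed the same test in this direction. That share includes genes of low level, and with the filter at a lowest value of 3, 240 of 670 did. Both ATF4 KO values of Nek2 and their closeness were set by the transform. At WT levels 4.18 reads were expected over the pair, and the exact Poisson interval of the ratio ended at 0.883. At the yield of other genes 2.04 reads were expected and the interval ended at 1.81, so at that yield a decrease could not be detected from reads. Of 544 genes with WT means of at least 3 and recovered reads, 44.9% had 0 reads in both. The 116 genes of such levels without recovered reads were not among those of 0 reads, so over all 660 the share was lower. Nek2 shares 298 exon bases with the antisense gene Gm38037, whose reads cannot be told apart without strand and which was low (2.16 normalised reads in WT, against 57.1 for Nek2).

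Nuf2 and Cenpf each had 1 ATF4 KO read. Nuf2 (chromosome 1, 169497934 to 169531464) read 5.66 and 5.67 (WT) against 4.80 and 3.08 (ATF4 KO), with its read in ATF4 KO 1 where 3.98 were expected in both together. It differed by -1.73 ± 0.75 (SE; limma, adjusted p = 0.173), from -2.59 without ATF4 KO 1 to -0.87 without ATF4 KO 2. Cenpf (chromosome 1, 189640606 to 189688086) read 5.97 and 5.80 (WT) against 3.14 and 4.79 (ATF4 KO), with its read in ATF4 KO 2 where 4.66 were expected in both together. It differed by -1.92 ± 0.73 (SE; limma, adjusted p = 0.141), from -1.10 without ATF4 KO 1 to -2.75 without ATF4 KO 2. In both genes the ATF4 KO values lay below both WT values, as in 98 of 131 other tested genes with WT means from 5 to 6. The 2 genes of lowest level overlapped between the groups. Aspm (chromosome 1, 139454772 to 139494091) read 4.10 and 4.14 (WT) against 2.89 and 4.53 (ATF4 KO), with 1 read against 1.31 expected, and differed by -0.41 ± 0.68 (SE; limma, adjusted p = 0.636). Its sign turned without ATF4 KO 1 (0.41) and when each library was centred on its median (0.36). Kif14 (chromosome 1, 136466343 to 136531511) was the 1 gene with a higher mean in ATF4 KO, with 3.30 and 3.17 (WT) against 2.79 and 5.33 (ATF4 KO). Its 2 reads lay in ATF4 KO 2, where 0.654 were expected in both together, and their ratio was 3.06 (0.370 to 11). It differed by 0.83 ± 1.06 (SE; limma, adjusted p = 0.548) and by -0.45 without ATF4 KO 2. When libraries were centred, every difference rose by 0.77, to -0.59 for Mcm3 and -1.94 for Nek2, and among the 10 genes the sign turned for Aspm alone.

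**Figure D3:**
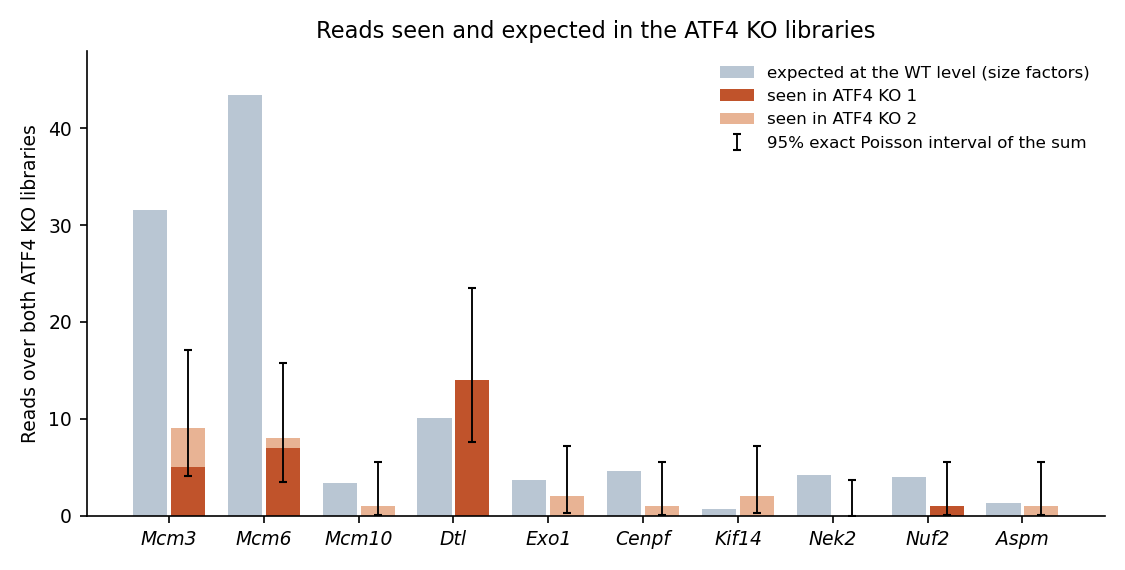
Reads of each gene summed over both ATF4 KO libraries (orange, stacked by library, with the 95% exact Poisson interval of the sum) beside the reads expected at the WT level and the size factors (grey). Mcm3 and Mcm6 lie well below the grey bars, Dtl above it with all 14 reads in ATF4 KO 1, and the other genes have 0 to 2 reads.

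In all, 1 of the 10 genes passed the test, lower in ATF4 KO, and none was higher. Over all tested genes 47.0% passed, with 24.6% higher. With the filter at a lowest value of 3, which kept all 10 genes, 240 of 670 tested genes were lower and 15 higher. The count was 8 without ATF4 KO 1 and 9 without ATF4 KO 2, where the spread comes from the close WT pair alone, and each included 1 higher gene. Both ATF4 KO values lay below both WT values in 6 of the 10 genes, against 40.7% of tested genes, and above them in 0, against 40.5%. These shares include genes of lower level than the 10, so they are not a like comparison. With 2 libraries a group, the smallest two-sided p of an exact permutation test is 0.333. The median difference was -1.44 over the 10 genes, -1.37 over the replication genes and -1.73 over the mitosis genes. It was 0.02 over all tested genes, and -1.04 over the 660 tested genes with WT means of at least 3, the range in which the 10 genes lay. Genes at these WT levels thus had a negative median too. Of 131 other tested genes with WT means from 5 to 6, the level of 5 of the 10 genes, 114 had a lower mean in ATF4 KO, with a median difference of -1.53. In 98 of these 131 both ATF4 KO values lay below both WT values. The same held for 9 of 37 other tested genes with WT means from 8 to 9, most of them without recovered reads.

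**Figure D4:**
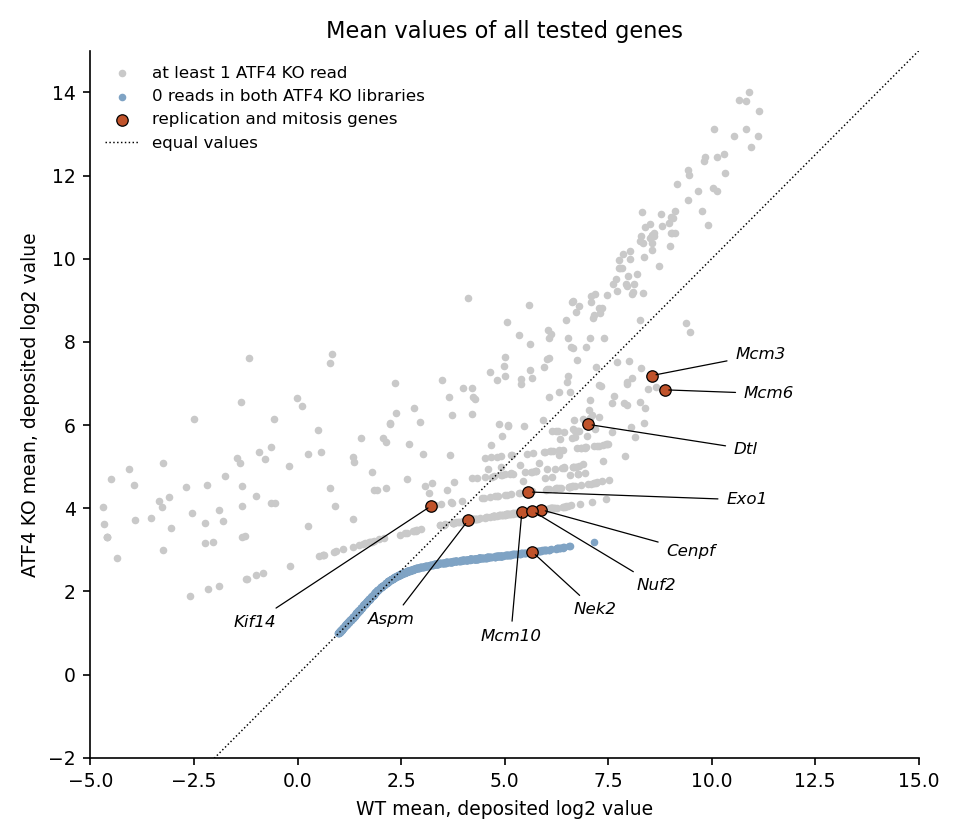
Mean deposited log2 value in WT and ATF4 KO of the 1199 tested genes, with genes of 0 ATF4 KO reads in blue, the 10 genes in orange and the line of equal values dotted. Genes with 0 reads follow 1 curve set by the transform, on which Nek2 lies, and 9 of the 10 genes lie below the dotted line.

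Read numbers pooled over the 10 genes gave 39 reads in the ATF4 KO pair, against 106.8 expected at WT levels, a ratio of 0.365 (95% exact Poisson interval 0.260 to 0.499). Replication genes had 34 of 92.1 expected reads (0.369, from 0.256 to 0.516) and mitosis genes 5 of 14.8 (0.338, from 0.110 to 0.790). The 534 other genes gave 0.488, so relative to them the pooled ratio was 0.749. Yields differed by level, so 1 yield is not a like comparison for the pool. Other genes with WT means from 5 to 6 gave 0.534 (121 genes, with 10 more not recovered). Those from 8 to 9 gave 0.235 (9 genes, with 28 more not recovered). The ATF4 KO libraries did not give the same ratio: it was 0.514 in ATF4 KO 1 and 0.221 in ATF4 KO 2 for the 10 genes, and 0.501 and 0.475 for the other genes. Without Dtl, which held 14 of the 39 reads, the ratio was 0.258 over the pair, 0.273 in ATF4 KO 1 and 0.244 in ATF4 KO 2. By gene, the interval of the ratio lay below 1 in 3 of the 10, Mcm3, Mcm6 and Nek2, and above 1 in 0. Of 544 genes with WT means of at least 3 and recovered reads, 19.9% lay below 1 and 3.49% above. These shares leave out 116 genes of such levels whose reads were not recovered. At the yield of the 534 other genes it lay below 1 in Mcm6 alone and above 1 in Dtl alone. At the yield of the 9 recovered genes of its own level it no longer lay below 1 in Mcm6. Recovery at that level favoured genes with few ATF4 KO reads, so that yield cannot decide the matter. The ratios of Mcm3 and Mcm6 were subject to the same selection. So were the pooled ratios, since these 2 genes gave 31.6 and 43.4 of the 106.8 expected reads.

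The other genes of the cell cycle were counted in 7 lists by function, of 252 genes without the 10 above. Only 21 of these lay in the stretch of genome analysed, and all 21 were tested. None was higher and 7 were lower, with a median difference of -0.65, against 22.4% lower over all tested genes. That share includes genes of low level. With the filter at a lowest value of 3, 6 of 20 list genes were lower, against 240 lower and 15 higher of 670 tested genes. With centred libraries 5 of the 21 passed, 4 lower (Rgs2, Ahctf1, Lin9 and Nsl1) and 1 higher (Cep350, named after its values were seen). The calls of Nabp1, Parp1 and Mastl were then lost. Of the 7, 6 had 0 ATF4 KO reads in both libraries, so their values were set by the transform. In the list of replication licensing, Orc2, a subunit of the origin recognition complex, was the 1 further gene, with 5.01 and 5.15 (WT) against 3.41 and 8.53 (ATF4 KO). Its 19 reads all lay in ATF4 KO 2, where 2.34 were expected in both together, and it did not pass (0.90 ± 2.14, SE; limma, adjusted p = 0.736). Among 3 further genes of the replication fork, 2 were lower. Parp1, which senses DNA breaks, read 7.37 and 7.51 (WT) against 3.44 and 5.0 (ATF4 KO) (-3.22 ± 0.73, SE; limma, adjusted p = 0.0485), with 1 read against 14.5 expected. Its call held with no filter and without either ATF4 KO library, and was lost under the other alternatives, such as a replicate block or leaving out WT 1 or WT 2. Nabp1, a single-strand DNA binding protein, fell by 0.68 ± 0.06 (SE; limma, adjusted p = 0.00585) with 0 reads against 0.849 expected, and was at 0.097 with centred libraries. Prim2, the large primase subunit, had 3 of 4.73 expected reads and did not pass (-0.62 ± 0.45, SE; limma, adjusted p = 0.340).

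Of 6 further kinetochore and centromere genes 2 were lower, Nsl1 of the MIS12 complex (-2.30 ± 0.11, SE; limma, adjusted p = 0.00231) and the nucleoporin Ahctf1 (-1.48 ± 0.10; limma, adjusted p = 0.00306), both with 0 reads, against 3.01 and 1.61 expected. Those of highest WT level, the nucleoporin Tpr (9.05 and 9.0 in WT, 8.82 and 12.41 in ATF4 KO) and Hjurp, the chaperone of the centromeric histone (8.18 and 8.07 in WT, 7.91 and 10.88 in ATF4 KO), did not pass, and their reads were not recovered. None of 3 further spindle genes passed, with the kinase Nek7 at -1.12 ± 0.71 (SE) and the kinesin-2 subunit Kifap3 at -0.50 ± 0.73. Of 4 genes of mitotic control, Lin9, of the MuvB complex (-1.76 ± 0.07, SE; limma, adjusted p = 0.00225) and the kinase Mastl (-0.65 ± 0.10; limma, adjusted p = 0.0202) were lower, each with 0 reads against 1.99 and 0.835 expected. Mastl was at 0.12 with centred libraries, and its call was also lost with no trend (adjusted p = 0.0627). Anapc2, a subunit of the anaphase promoting complex, had 1 read against 9.15 expected and did not pass (-2.73 ± 0.76, SE; limma, adjusted p = 0.0783), nor did the ubiquitin-conjugating enzyme Ube2t (-0.87 ± 0.29). No gene of the list of G1 to S control was in the stretch analysed. Among 4 quiescence genes, Rgs2, a regulator of G protein signalling, was lower (-2.06 ± 0.09, SE; limma, adjusted p = 0.00226) with 0 reads against 2.50 expected. Mdm4, a p53 inhibitor (2.02 ± 1.71, SE), and the antiproliferative gene Btg2 (1.48 ± 2.28) did not pass. Each had 1 high ATF4 KO library, ATF4 KO 2, at 10.09 and 9.86, and their reads were not recovered.

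Genes of like pattern were sought over the 4 log2 values among 890 other protein-coding genes, by Euclidean distance. Nearest to the median profile of the replication genes were, among others, Clk1 (distance 0.46) and Eef1b2 (0.99). Nearest to that of the mitosis genes were Med22 (0.26), Surf2 (0.34) and Sephs1 (0.34), each with 0 reads in ATF4 KO 1 and 1 read in ATF4 KO 2. At such read numbers the distance rests on the WT level and on which library holds a read.

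Markers of the sorted cells and of others were few here. Of 14 genes in the LT-HSC list 3 were tested. The list holds Cd34, which is known to be low or absent on mouse LT-HSCs and to mark short-term stem cells and progenitors. Cd34 was at 9.44 and 9.50 in WT and 8.30 and 8.17 in ATF4 KO, Gfi1b had 0 ATF4 KO reads against 5.27 expected, and Slamf1, encoding CD150, had 0 against 1.003. Gfi1b and Slamf1 passed the test, lower. Of 10 progenitor markers 2 were tested, with summed normalised reads of 120.2 and 185.1 in WT and 4 and 2 ATF4 KO reads against 11.2 expected. Cd48, which LT-HSCs are known to lack, was at 6.49 and 7.11 in WT and 5.88 and 5.85 in ATF4 KO. Of 10 mature myeloid markers 4 were tested. The Fc receptor chain Fcer1g had 14.31 and 13.73 in ATF4 KO against 10.89 and 10.89 in WT. It did not pass (limma, adjusted p = 0.0564), and no reads were recovered for it. Cxcr2 and Fcgr4 had 0 ATF4 KO reads against 0.696 expected. Of 8 B cell markers 1 and of 10 T and NK cell markers 5 were tested, with summed normalised WT reads of at most 2.73 and 13.2 and 0 ATF4 KO reads. Selp, of the erythroid and megakaryocyte list, had 1 read against 4.83 expected. Of 4 endothelial and stromal markers in the table, Col3a1, Col5a2 and Prrx1 were listed at 0 in every library and Sele had 0 ATF4 KO reads. In the lists of other cells 5 genes passed, all higher and each with 0 ATF4 KO reads: Fcgr4, Fcrla, Ctla4, Xcl1 and Sele. Their differences ran from 0.019 (Ctla4) to 0.084 (Fcrla), with 0.018 to 0.158 reads expected. Their ATF4 KO values were set by the transform, so these calls do not show higher levels. The part of other cells in the values of the replication and mitosis genes was not tested.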

How the data were processed

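The 2 WT and 2 ATF4 KO libraries of LT-HSC RNA were grouped by their titles. The authors deposited 1 normalised log2 value per gene and library. HISAT2 2.2.1, featureCounts, DESeq2 and GRCm38 are named without role or order, per the submitters' processing notes, and the transform is not given in the sources used here. The last line of the table stops inside its values and was left out.

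The values met the equation of a regularized logarithm (ridge weight 0.1645, fitted reads held at 0.5 or more). The 1399 genes without an ATF4 KO read met it with a largest residual of 9.92e-08, against at least 0.0366 in the others, and a subset of them gave the ATF4 KO size factors. Reads of 288 of 289 genes with 0 reads in 1 library came within 0.1 of whole numbers at the ridge weight that made them most nearly whole, and so did 111 of 112 further genes, including Dtl, when the dispersion was taken from its trend over genes. That trend ended at a mean of 277.2 normalised reads. Mcm3 (distance 0.00808 from whole) and Mcm6 (0.00681) lay beyond it, up to 352.1, and were recovered by carrying it on in steps of 10%. Their WT levels and ATF4 KO reads thus rest on that step. It recovered 7 genes in all, and the number tried in it is not given here. WT size factors were those that made low WT reads whole. For 123 genes no reads were recovered. The recovery was tested on simulated data.

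Limma 3.58.1 (R 4.3.3, statmod 1.5.0) was fitted to the log2 values of genes at 1 or more in at least 2 libraries, with a level-dependent prior variance, estimated robustly. P-values are two-sided, adjusted by Benjamini and Hochberg over all tested genes, threshold 0.05. Expected reads are the mean normalised WT reads times the summed ATF4 KO size factors, with exact Poisson intervals from scipy 1.17.1. Coordinates and exons are from GENCODE M21 (GRCm38), which matched 98.8% of symbols.

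The 10 genes, the lists and the tests were chosen with earlier results of these data known. Named besides the 10 genes are, per list, genes past the threshold (up to 4) and the 2 of highest WT mean, the 3 nearest genes per profile, and marker genes. One of the nearest genes and 1 myeloid marker are not reported here. Cr2 and Fcmr, markers of B cells, were below the filter. Alternatives were other filters, no trend, a spread per genotype, a replicate block, left-out libraries and, chosen after seeing the data, centred libraries, genes with an ATF4 KO read only, each ATF4 KO library alone for reads, the yield of genes with WT means from 8 to 9, and no Dtl.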

Additional observations from a re-analysis of the deposited data

How the results depend on the processing

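Nek2 passed under every alternative that tested it and was not tested among genes with an ATF4 KO read only. Of the 10 genes, 2 passed with no trend in limma's prior (Mcm3 and Nek2), 0 of 9 among genes with an ATF4 KO read only (limma, 0 at an unadjusted p under 0.05), and from 1 to 9 when 1 library was left out. Fits without an ATF4 KO library take their spread from the WT pair, and the lone library is assumed to vary like it. Signs turned for 4 genes. Without ATF4 KO 1 and without ATF4 KO 2, Dtl was at -3.25 and 1.26, Exo1 at 0.052 and -2.42, Kif14 at 2.10 and -0.45 and Aspm at 0.41 and -1.23, and Aspm was at 0.36 with centred libraries. The cause was not tested. The count over all tested genes, 563, was 1315 (1037 higher) without a filter, 255 (15 higher) at a lowest value of 3, 291 (28 higher) with no trend, 0 among the 522 genes with an ATF4 KO read (limma, 78 at an unadjusted p under 0.05), and 634 to 884 without 1 library. Centring the libraries, which raised each difference by 0.77, gave 648 (478 higher). The 7 calls among the other list genes became 0 of those with an ATF4 KO read (limma, 2 at an unadjusted p under 0.05) 6 to 18 without 1 library and 5, of which 1 higher, with centred libraries. Among the list genes named, signs also turned with centred libraries for Prim2 (0.15), Nabp1 (0.097), Kifap3 (0.27) and Mastl (0.12). Without ATF4 KO 1 and without ATF4 KO 2, Orc2 was at 3.46 and -1.66, Hjurp at 2.75 and -0.22, Tpr at 3.38 and -0.20, Kifap3 at -1.36 and 0.35 and Btg2 at 4.20 and -1.24. The pooled reads ratio of 0.365 was 0.749 at the yield of other genes, 0.258 without Dtl, and 0.221 to 0.514 without 1 library. Same-numbered libraries did not deviate together (correlation over genes -0.0760). With the replicate number as a block, the 10 genes kept 1 call, Nek2, the other list genes 6, and all genes 510. Limits include 2 libraries a group, 123 genes without recovered reads and the depth of the ATF4 KO libraries, where 0.654 (Kif14) to 43.4 (Mcm6) reads of a gene were expected over the pair.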
